A study of Mus musculus with 2 samples.

Results

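Pigment genes were read in Drop-seq libraries of cells from mouse aortic and mitral valves, where 10 genes of the pigment cell lineage were followed among 23702 listed genes: Dct, Pmel, Mlana, Tyrp1, Tyr, Slc45a2, Mitf, Ednrb, Gpnmb and Ptgds. A cell barcode was called a pigment barcode when it held at least 5 unique molecular identifiers (UMIs) of Dct, Pmel, Mlana and Tyrp1 together. By that rule 15 of 961 barcodes at postnatal day 7 (P7) and 17 of 3512 at postnatal day 30 (P30) were pigment barcodes, 32 of 4473 in all. The other 6 genes took no part in the choice. All mice were of the strain C57BL/6J, and no other genotype or treatment is named in the labels. Each age is 1 library from 1 run of its own, so age and run cannot be told apart, no difference had a replicate check, and no test was made. The number of animals pooled per library is not given in the sources used here.

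Melanocytes arise from the neural crest and make melanin inside melanosomes, organelles related to lysosomes. The transcription factor MITF turns on the enzymes of melanin synthesis, endothelin receptor B and KIT guide melanoblast migration and survival, and structural and transport proteins build the melanosome and feed it. Pigment cells are known in the heart, including the valves of pigmented mouse strains.

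MITF binds an extended E-box, TCATGTG, known as the M-box, and the 3 genes of the melanin enzyme family carry it close to their start. The 250 bases before the RefSeq start of each are shown here because these 3 genes are the ones among the members in which the motif was found. The coordinates are of GRCm38.p6, the sequences run 5′ to 3′ on the strand of the gene, and capitals mark TCATGTG or its reverse complement. Dct lies at chr14:118052247-118052496 on the minus strand, Tyrp1 at chr4:80833963-80834212 on the plus strand and Tyr at chr7:87493513-87493762 on the minus strand.
Dct: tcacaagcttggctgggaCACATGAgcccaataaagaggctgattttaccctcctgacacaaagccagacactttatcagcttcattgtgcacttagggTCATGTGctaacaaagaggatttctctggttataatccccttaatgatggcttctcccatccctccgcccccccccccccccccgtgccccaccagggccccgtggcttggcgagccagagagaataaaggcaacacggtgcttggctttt
Tyrp1: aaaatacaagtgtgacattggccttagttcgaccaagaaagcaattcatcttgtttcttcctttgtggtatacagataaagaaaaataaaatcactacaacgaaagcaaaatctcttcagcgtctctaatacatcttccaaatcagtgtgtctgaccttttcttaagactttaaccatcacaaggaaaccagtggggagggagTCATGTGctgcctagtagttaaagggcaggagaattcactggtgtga
Tyr: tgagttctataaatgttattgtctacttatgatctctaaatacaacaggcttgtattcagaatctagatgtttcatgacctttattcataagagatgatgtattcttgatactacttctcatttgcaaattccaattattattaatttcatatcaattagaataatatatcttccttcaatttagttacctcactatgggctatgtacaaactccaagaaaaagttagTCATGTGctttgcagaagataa
The match lay 22 bases before the start in Tyr and 47 before it in Tyrp1, counted to its first base, and Dct had matches at 151 and 232 bases before the start, the farther of them on the opposite strand. Of the 10 members 7 had an entry in the RefSeq promoter table, and 3 of the 7 held TCATGTG on either strand, against 3.72% of 27025 genes with a window of the same length. Among 13 of the 18 genes of a list of melanosome enzymes and structural genes with an entry, 5 held it, these 3, Slc24a5 and Trpm1. No match was found in the windows of Mitf, Ednrb, Gpnmb and Ptgds. The shorter E-box CACGTG was in 0 of the 7 members and in 6.86% of all genes. The general E-box CANNTG, which every TCATGTG contains, was in 6 of the 7 and in 69.3% of all genes. The letters ACAAAG, a core bound by SOX factors, were in 3 of the 7 and in 18.6% of all genes, and ACAATG was in 1 of the 7 and in 12.2%. A match is a description of the letters, and binding was not measured.

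The P7 library held 3116184 UMIs with a median of 2215 per barcode, and the P30 library 11267724 with a median of 2440.5. No barcode sequence was shared between the libraries. Barcodes outside the pigment class were sorted by 2 rules into a matrix class, in which the collagen genes Col1a1, Col1a2 and Col3a1 and the proteoglycan Dcn made up at least 1% of UMIs (721 at P7 and 2844 at P30), and an endothelial class, under that share but with at least 2 UMIs of Pecam1, Cdh5, Emcn and Egfl7 (95 and 204). Of the remainder, 54 and 237 barcodes with at least 5 UMIs of C1qa, C1qb, C1qc, Tyrobp and Fcer1g formed a myeloid class, and 76 and 210 were left unsorted. Levels are UMIs per 1000000 UMIs of a class (CPM). Drop-seq counts the 3′ end of each transcript once, so no length enters. Intervals are 95%, cover counting error only, and treat UMIs as independent.

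The markers of the lineage were present. All 13 melanocyte markers were detected, with at least 1 UMI, in the pigment barcodes of each library, 4 of them by the rule that chose the barcodes. Those outside the rule included Kit, Sox10, Gpr143 (1 UMI at P7), Oca2, Trpm1 and Slc24a5. Matrix barcodes showed 7 of the 13 at P7 and 11 at P30, so the count alone does not separate the classes. The 13 summed to 50368 and 62940 CPM in pigment barcodes, against 47.9 and 25.4 in matrix barcodes, the 4 genes of the rule included. None of 11 macrophage, 8 mast cell and 7 lymphocyte markers had a UMI in the pigment barcodes of either library. Endothelial markers gave 1 UMI over 10 genes at P7 and 3 at P30, cardiomyocyte markers 1 and 0, and mural cell markers 15 and 11. Erythroid markers summed to 145 and 34 UMIs (2502 and 1103 CPM), with Alas2 at 0. Of 13 markers of glia and Schwann cells, 7 were detected in each library, among them S100b (31 and 61 UMIs), while the myelin genes Mbp and Cnp and the receptor gene Ngfr were at 0 in both. Sox10 itself, shared by glia and melanocytes, gave 13 UMIs in 11 barcodes at P7 and 1 UMI in 1 barcode at P30.

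Some pigment barcodes also held UMIs of matrix or endothelial genes, whose source was not tested. In 1 of 15 at P7, the deepest with 14626 UMIs and 25.2% of the UMIs of the class, matrix genes made up 6.37% of UMIs. At P30, 2 of 17 had 1% or more matrix UMIs, 2.16% in the deepest, with 6018 UMIs, and another held 2 endothelial UMIs. The interstitial markers summed to 18394 CPM over the P7 and 6326 CPM over the P30 pigment class, but to a median of 0.0385% and 0.0888% of a barcode's UMIs. Mitochondrial UMIs made up a median of 2.69% at P7 and 6.66% at P30, with a highest value of 7.36% and 28.1%. The part of these differences in the results was not tested, and values without the mixed barcodes are given where they change a result.

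The pigment barcodes stood clear of all others (plot of pigment gene UMIs against depth). At P7 they held from 39 to 484 UMIs of the 4 genes with a median of 111, and at P30 from 37 to 216 with a median of 112. The highest count outside was 3, in 2 barcodes of the P7 matrix class, and 2 in the P30 library, in 7 barcodes. The next pigment barcodes above the lowest held 50 and 40. A total of 924 of 946 other barcodes at P7 and 3448 of 3495 at P30 had no UMI of the 4 genes. Inside, the 4 genes made up from 0.342% to 9.28% of UMIs at P7, the lowest in the deepest barcode, and from 2.87% to 8.95% at P30. Pigment barcodes were 1.56% of the P7 library (0.876% to 2.56%, exact Clopper-Pearson interval) and 0.484% (0.282% to 0.774%) of the P30 library. These shares are of barcodes that passed the authors' minimum, and fewer cells per tissue cannot be told apart from other cells being recovered more often.

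**Figure D1:**
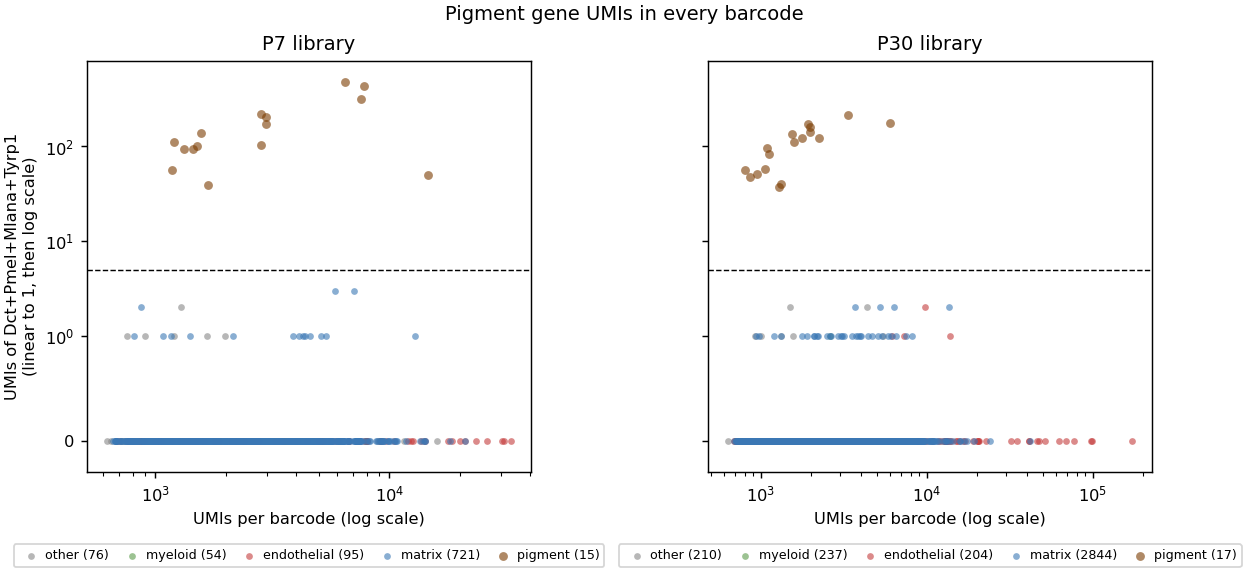
UMIs of Dct, Pmel, Mlana and Tyrp1 summed per barcode (y axis, linear up to 1 and logarithmic above) against the barcode's total UMIs (x axis, log scale), one point per barcode, coloured by class, in the P7 (left) and the P30 library (right); the dashed line is the rule of 5 UMIs. The pigment barcodes start at 39 and 37 UMIs and no other barcode exceeds 3 and 2.

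Dct encodes dopachrome tautomerase, which acts after tyrosinase in the melanin pathway, and it gave most of the UMIs that chose the barcodes. It was in every pigment barcode, at 2940 CPM in the lowest, 46235 in the median and 70378 in the highest at P7, and at 25095, 58265 and 79152 at P30. The low P7 value was that of the deepest, mixed barcode. Summed over the class, Dct reached 33734 CPM (32255 to 35264) at P7 and 50320 (47846 to 52888) at P30, and it made up between 64.9% and 92.3% of the 4 genes' UMIs per barcode at P7 and between 65.5% and 98.04% at P30. Pmel, whose protein forms the amyloid fibrils on which melanin is laid down, had a median of 7687 CPM per barcode at P7 (0 to 17558) and 3673 at P30 (0 to 8881). Mlana, a melanosome protein that works with PMEL, had medians of 4132 (0 to 9568) and 3053 (0 to 9664). Tyrp1, the tyrosinase-related protein that acts late in eumelanin synthesis, was found in the fewest barcodes of the 4, 12 of 15 and 11 of 17, with medians of 2262 (0 to 10033) and 1017 (0 to 7798) CPM. These 4 genes chose the barcodes, so their levels there are a description.

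Each of the 4 could be read without its own help in barcodes chosen by the other 3. Pmel, Mlana or Tyrp1 left out changed no barcode in either library. With Dct left out, 14 of the 15 and 14 of the 17 were still chosen, and Dct had UMIs in all of them, at 34100 CPM (32591 to 35660) at P7 and 50930 (48311 to 53655) at P30. In the remaining barcodes Dct was at 18.3 and 15.8 CPM, and these included the 1 and 3 pigment barcodes that only Dct had carried over the rule. Pmel was found in 14 of 15 and 16 of 17 barcodes chosen by the other genes and in 5 of 946 and 6 of 3495 others. Tyrp1 was in 12 of 15 and 11 of 17, and in 0 and 2 of the others. Dct alone gave at least 36 UMIs in every pigment barcode at P7 and 33 at P30. Leaving out any of the other 3 could thus drop no barcode below 5 UMIs. Only the choice without Dct was open, and all these counts are a description.

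Of the 6 members outside the rule, Tyr and Slc45a2 belong to melanin synthesis itself. Tyr encodes tyrosinase, the rate-limiting enzyme. It had UMIs in 12 of 15 barcodes at P7, with 0 to 3700 CPM and a median of 707, and in 9 of 17 at P30, with 0 to 1900 and a median of 300. All 56 Tyr UMIs of the P7 library lay in pigment barcodes, and 14 of 20 at P30. Slc45a2, a melanosomal transporter that regulates the organelle's pH, had 38 UMIs at P7, all of them in pigment barcodes, with a median of 513 CPM (0 to 2755). At P30 it had 9 UMIs in 7 of 17 barcodes and 1 UMI outside. Over the matrix class, which had no UMI at P7 and is set there at a floor of 3, Tyr was 699-fold higher. The exact lower bound of this ratio was log2 9.10. At P30 Tyr was 1913-fold higher from 14 against 2 UMIs (log2 10.90, 8.78 to 14.08).

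Mitf, the master regulator of the lineage, was found in 13 of 15 pigment barcodes at P7, with a median of 836 CPM (0 to 3370), and in 8 of 17 at P30, where the median barcode had none and the highest 2329. Its class level was 863 CPM (640 to 1137) at P7 and 616 (371 to 963) at P30. The level in the matrix class was 5.53 and 7.12 CPM, which put pigment barcodes 156-fold and 86.5-fold higher (log2 7.29, 6.36 to 8.33, and 6.44, 5.61 to 7.20). Unlike the enzymes, but like Ednrb (30.6% inside) and Gpnmb (29.4%), Mitf had most of its P30 UMIs outside. Its share in pigment barcodes was 16.96% (10.5% to 25.2%), against 63.3% (51.7% to 73.9%) at P7. Pigment barcodes held 0.274% of all UMIs at P30 and 1.86% at P7, which lowers this share even at equal levels. The outside level of Mitf was 1.10% of its inside level at P7 and 1.34% at P30.

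Ednrb encodes endothelin receptor B, needed by migrating melanoblasts and also expressed by endothelium. It was in every pigment barcode at P7, at 137 to 10601 CPM with a median of 4174, and in 16 of 17 at P30, at 0 to 10515 with a median of 2755. The class levels were 3969 CPM (3472 to 4516) and 2920 (2348 to 3589). Pigment barcodes were 431-fold and 820-fold above the matrix class, and 21-fold (log2 4.39, 4.05 to 4.74) and 35.0-fold (log2 5.13, 4.74 to 5.52) above the endothelial class. Of all ratios of the members over the matrix or the endothelial class, that of Ednrb over endothelial barcodes was the smallest in both libraries.

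Gpnmb encodes a melanosomal glycoprotein related to PMEL that macrophages can also make. At P7 it was in all 15 pigment barcodes, at 410 to 6887 CPM with a median of 2696, and at P30 in 15 of 17, at 0 to 4542 with a median of 1837. Ptgds encodes lipocalin-type prostaglandin D synthase, which makes prostaglandin D2 and is known in melanocytes. It was in 9 of 15 pigment barcodes at P7 and 10 of 17 at P30. The median over barcodes was 133 CPM at P7 (0 to 2126) and 1017 at P30 (0 to 4580). In counts the median was 1 Ptgds UMI in both libraries, at median depths of 2822 UMIs at P7 and 1541 at P30. The P7 UMIs of Ptgds numbered 16, and none lay outside the pigment barcodes.

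Every member was at least 2-fold higher in pigment than in matrix barcodes, 10 of 10 measured at P7 and 9 of 9 at P30, where 20.8% and 19.4% of all measured genes were so and 16.2% and 20.2% were at least 2-fold lower. Against the endothelial class the counts were again 10 of 10 and 9 of 9, beside 19% and 18.2% of all measured genes, with 21.5% and 24.2% lower. A gene counted as measured when its level in the higher class would give at least 10 UMIs in the class with fewer UMIs, and Slc45a2 missed this at P30. For the 4 genes of the rule the counts were fixed by the choice of barcodes. The 6 others took no part in that choice, but all members were listed with earlier results of these data known. Their counts are thus a description too. The lowest log2 ratio of these 6 over the matrix class was 7.29 at P7 and 6.44 at P30, both Mitf.

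**Figure D2:**
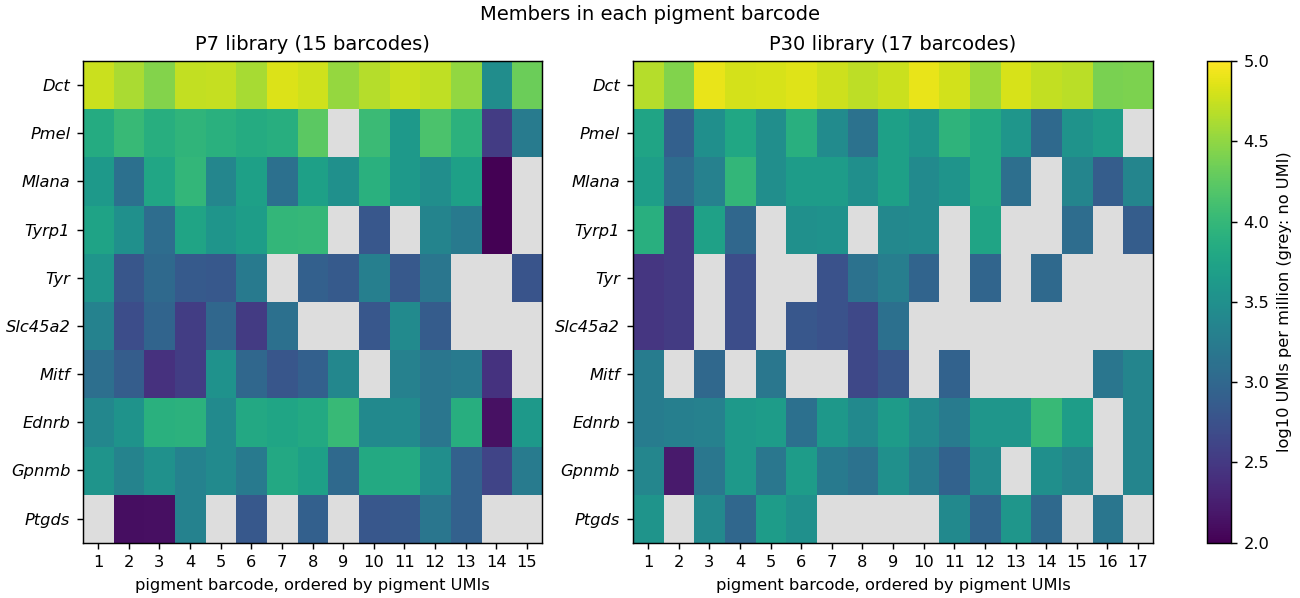
Heat map of each member (rows) in each pigment barcode (columns, from most to fewest UMIs of the 4 rule genes), coloured by log10 CPM, with grey for no UMI, in the P7 library (15 barcodes) and the P30 library (17). Dct is coloured in every column, Ednrb and Gpnmb in all 15 of P7, and Tyr, Slc45a2 and Mitf have more grey at P30, where the median depth is 1541 against 2822 UMIs.

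Single barcodes carried most of the set. A median of 9 of the 10 members was detected per pigment barcode at P7 (5 to 10) and 8 at P30 (5 to 10). Depth differed between the libraries, with medians of 2822 and 1541 UMIs. When each barcode was thinned to 500 UMIs the expected share of pigment barcodes with a UMI was 82.9% and 77.1% for Ednrb and 72.5% and 60.8% for Gpnmb. For Mitf it was 39.9% and 23.7%, and for Tyr 36.6% and 20.7%. The thinned share of Ptgds went the other way, 21.7% at P7 and 42.7% at P30. Over all other barcodes the thinned share of Ednrb was 2.05% and 0.562%, of Mitf 0.524% and 0.464% and of Gpnmb 0.185% and 0.599%.

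Outside the pigment barcodes the members differed in level. The 4 rule genes together stood outside at 0.0202% of their inside level at P7 (0.0134% to 0.0292%) and 0.00809% (0.00608% to 0.0106%) at P30, values that the rule keeps low, since a barcode with 5 or more of their UMIs counts as inside. Mitf stood at 1.10% and 1.34%, Ednrb at 1.15% and 0.622% and Gpnmb at 0.111% and 0.658%. Ptgds had no UMI outside at P7 and stood at 0.242% (0.172% to 0.333%) at P30. Tyr stood at 0.118% (0.0431% to 0.256%) at P30, from 6 UMIs.

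**Figure D3:**
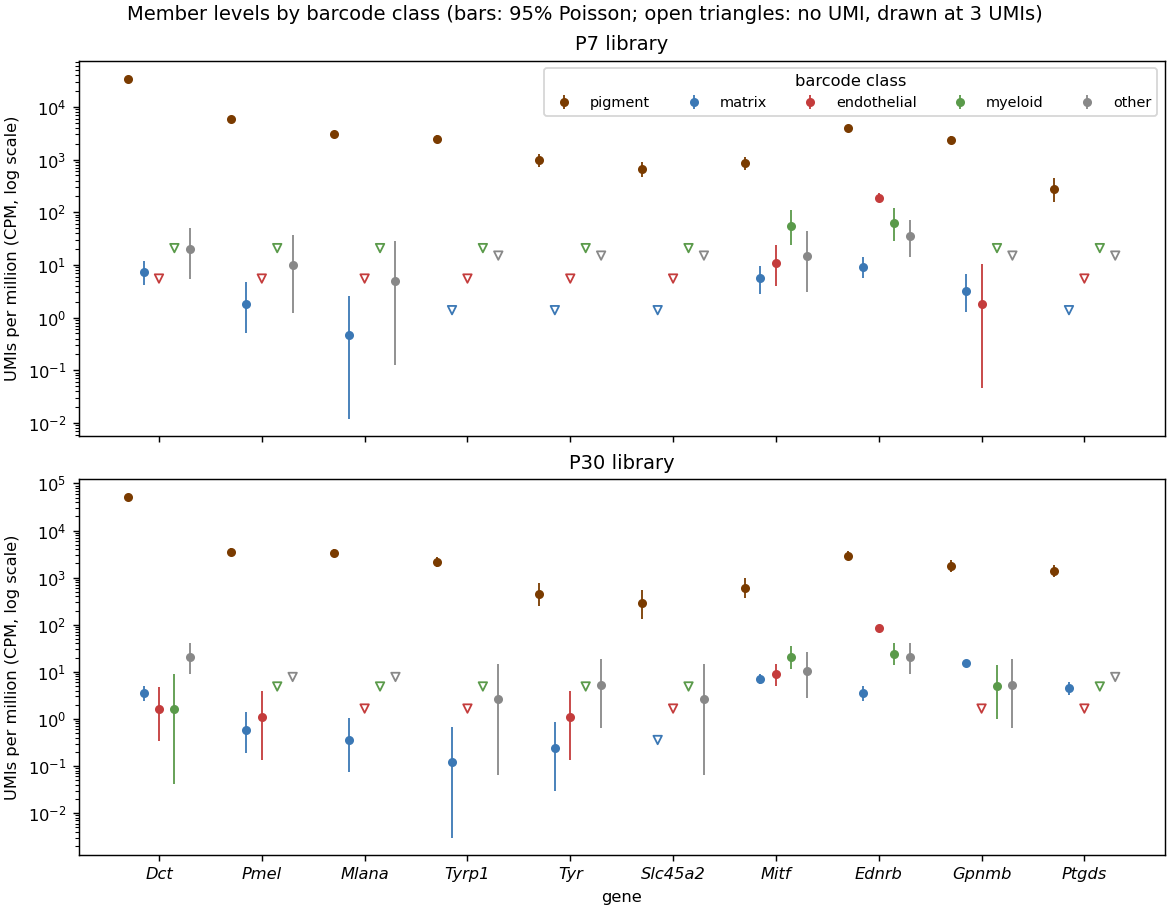
Level of each member in CPM (y axis, log scale) in the pigment, matrix, endothelial, myeloid and unsorted barcodes of the P7 (top) and P30 (bottom) library, with 95% Poisson intervals; open triangles mark no UMI, drawn at the level of 3 UMIs. Pigment barcodes are highest for all 10 genes, and Ednrb in endothelial barcodes, at 189 and 83.3 CPM, is the highest level outside them.

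Ednrb outside was mainly endothelial. Endothelial barcodes held 103 UMIs at P7, or 189 CPM (154 to 229), in 31 of 95 barcodes, and 151 UMIs at P30, or 83.3 CPM (70.6 to 97.7), in 49 of 204. The 4 rule genes had no UMI in the P7 endothelial class, and at P30 Dct had 3 and Pmel 2. Thinned to 500 UMIs, 10.5% of P7 and 5.25% of P30 endothelial barcodes would show Ednrb, against 0.582% and 0.145% of matrix barcodes, whose median depth was 2241 and 2546.5 UMIs against 2764 and 3628. At P7 the levels ordered as pigment (3969 CPM), endothelial (189), myeloid (62.6), unsorted (35.1) and matrix (9.22), and the intervals of myeloid and unsorted overlapped, as did those of unsorted and matrix by a narrow margin. At P30 the order was pigment, endothelial, myeloid (24.4), unsorted (20.7) and matrix (3.56), with myeloid and unsorted overlapping. Of the 30 UMIs in the P30 matrix class, 13 came from 1 barcode, and the level without it was 2.02 CPM. At P7 10 of the 20 came from 1 barcode, and the level without it was 4.61 CPM.

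The barcodes that carried Ednrb were then set beside the rest of their class, a comparison chosen after the data were seen and given as a description. In endothelial barcodes Pdgfra, a growth factor receptor gene, was at 352 CPM in those with Ednrb against 68.5 in those without at P7, in 23 of 31 barcodes, and at 210 against 21.8 at P30, in 25 of 49, with 40% of these UMIs in 1 barcode. Carriers were deeper, with medians of 3998 against 2382 UMIs and 7162 against 2892. Of the 14 P30 matrix barcodes with Ednrb, 7 held at least 2 UMIs of the endothelial genes, and Egfl7 was at 719 CPM against 8.36 in the other matrix barcodes. In 8 P30 myeloid barcodes with Ednrb, Lyve1, a gene of tissue-resident macrophages and lymphatic endothelium, was at 1605 CPM against 71.0, and F13a1 at 3843 against 363, present in all 8. In the 6 P7 myeloid barcodes with Ednrb, F13a1 was at 1791 against 156 CPM.

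Mitf was low in every class outside. Myeloid barcodes had 8 UMIs at P7, 55.6 CPM (24.01 to 110), and 13 at P30, 21.1 CPM (11.2 to 36.1). At P7 the 7 myeloid barcodes with Mitf included 3 with mast cell genes. In those 7 the chymase gene Cma1 was at 13633 CPM against 209 in the other myeloid barcodes, Mcpt4 at 18408 against 352 and Cpa3 at 11388 against 318, each with UMIs in 3 barcodes and 48.6% to 60.9% of them in 1. MITF is known as a mast cell factor as well as a pigment cell factor. At P30 the level in the endothelial (8.83), matrix (7.12) and unsorted (10.3) classes had overlapping intervals.

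Gpnmb outside the pigment barcodes was a gene of the P30 matrix class. It had 127 UMIs there, 15.1 CPM (12.6 to 17.9), in 102 of 2844 barcodes, and 3 of these had 3 or more UMIs. In the P7 matrix class it had 7 UMIs in 7 of 721. Myeloid barcodes held 0 and 3 UMIs, so Gpnmb was at or under the floor in the class with macrophage genes. The matrix barcodes with Gpnmb at P30 had the antigen presentation genes H2-Eb1 at 244 against 57.3 CPM and Cd74 at 154 against 49.9, and complement C3 at 88.2 against 26.6, in 25, 15 and 13 of the 102. A single barcode gave 38.9%, 48.5% and 30.8% of these UMIs. Ptgds outside was found in matrix barcodes at P30 and nowhere else, with 38 UMIs in 24 barcodes, 4.51 CPM (3.19 to 6.19). In those 24 the osteocalcin genes Bglap and Bglap2, near-identical copies whose reads may be split, were at 403 and 423 CPM against 39.9 and 51.5, in 6 barcodes.

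Between the libraries the pigment barcodes differed in few members. The comparison is of 1 P30 with 1 P7 library. Of the 10 members 1 was at least 2-fold higher at P30 and 2 at least 2-fold lower, beside 17.9% and 20.7% of the 692 measured genes, so the shares were near those of all genes. The median log2 ratio over the members was -0.42 and over all measured genes -0.06. Ptgds was the higher one, from 16 UMIs and 276 CPM (158 to 448) at P7 to 43 UMIs and 1395 CPM (1010 to 1879) at P30, 5.05-fold (log2 2.34, 1.48 to 3.26). The ranges over single barcodes overlapped in this as in every member, and 6 of 17 P30 barcodes lay above 2126 CPM, the highest P7 barcode. With each barcode weighted equally the log2 ratio was 1.53. Tyr was 2.13-fold lower (log2 -1.09, -2.05 to -0.23) from 56 against 14 UMIs, and Slc45a2 2.25-fold lower (log2 -1.17, -2.40 to -0.09) from 38 against 9. With mitochondrial genes, mt-Rnr2 and Malat1 left out of the totals Tyr was under 2-fold (log2 -0.94).

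The other 7 differed by less than 2-fold. Dct was 1.49-fold higher at P30 (log2 0.58, 0.48 to 0.67). Pmel was lower (log2 -0.75, -1.07 to -0.44), as was Ednrb (log2 -0.44, -0.81 to -0.09), while the intervals of Mlana, Tyrp1, Mitf and Gpnmb included 0. Without the mixed barcodes, which left 14 in each library, 5 members were 2-fold apart, with Pmel at 3870 CPM at P30 against 7917 at P7 (log2 -1.03) and Tyrp1 at 1568 against 3324 (log2 -1.08) added. Ptgds was then at 1470 against 369 CPM. Without the barcode richest in the member itself, an alternative added after the data were seen, only Ptgds remained 2-fold apart, at log2 2.64, and Tyr stood at -0.73 and Slc45a2 at -0.96.

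**Figure D4:**
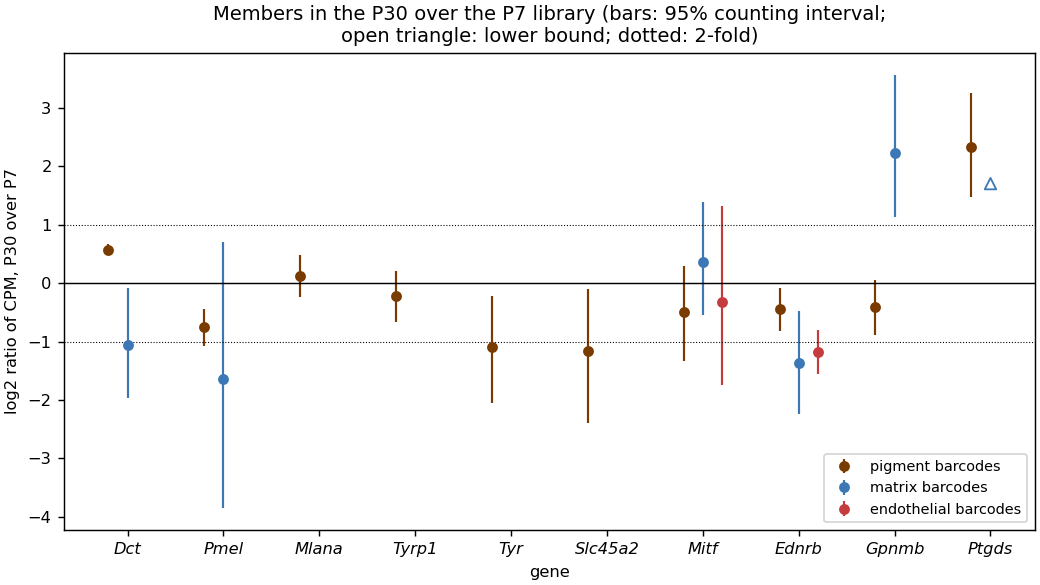
Log2 ratio of each member's level in the P30 over the P7 library (y axis) in pigment, matrix and endothelial barcodes, with 95% counting intervals; the open triangle is a lower bound, dotted lines mark 2-fold, and points of Pmel in matrix and Mitf in endothelial barcodes rest on fewer UMIs than the minimum. Ptgds in pigment barcodes (2.34) and Gpnmb in matrix barcodes (2.22) lie above 1, and Ednrb lies below -1 in the matrix (-1.37) and endothelial (-1.18) barcodes.

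Outside, the libraries differed in other members. In the matrix class Gpnmb was 4.67-fold higher at P30 (log2 2.22, 1.14 to 3.57), from 3.23 to 15.1 CPM, and Ednrb 2.59-fold lower (log2 -1.37, -2.24 to -0.48), as was Dct (log2 -1.05, and -0.70 when scaled by the median of ratios). These were 1 member of 4 measured higher and 2 lower, beside 5.8% and 18.3% of all measured genes. Ptgds had no UMI in the P7 matrix class and was 3.26-fold higher with that class set at the floor of 3 UMIs. It missed the minimum for a measured gene. In the endothelial class Ednrb, the only member measured, was 2.27-fold lower (log2 -1.18, -1.55 to -0.81), beside 14.2% of genes lower and 5.38% higher. It was at log2 -0.82 without barcodes over 20000 UMIs, and at -0.95 when scaled by the median of ratios. The ratio of Ednrb was below 0 in pigment, matrix and endothelial barcodes under every setting run.

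Most other melanosome genes that were measured were higher in pigment barcodes too. Of 18 listed melanosome enzymes and structural genes, 12 were measured at P7 and 9 at P30 over the matrix class. At least 2-fold higher were 11 and 9, the 4 genes of the rule included, beside 20.8% and 19.4% of all measured genes, and those that were not members were 4 of 5 and 3 of 3: Syt4, a vesicle synaptotagmin, Slc24a5, a cation exchanger of the pigment pathway, Trpm1 and, at P7, Mcoln3. Slc24a5 was at 1087 against 29.0 CPM at P7 and 811 against 11.9 at P30. The cation channel gene Trpm7 was lower at P7 (log2 -1.11, -2.74 to 0.12), from 5 UMIs, with an interval that included 0. In the list of melanosome biogenesis and transport, 6 of 8 and 5 of 5 were higher, beside the same shares, with the motor Myo5a at 673 against 71.9 CPM and 1136 against 60.8, its adaptor Mlph at 380 against 1.84 and 552 against 3.44, Rab38, which routes cargo to melanosomes, at 242 against 1.84 and 324 against 0.712, and the tetraspanin Cd63 at 1449 against 559 and 1200 against 535. The median log2 ratio over measured genes that were not members was 8.63 and 10.79 for the enzyme list, from 5 and 3 genes, and 4.45 and 7.32 for the transport list, against 0.15 and 0.05 over all genes.

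Lineage regulators gave 6 higher and 1 lower of 8 at P7, beside 20.8% and 16.2% of all measured genes, and 5 and 1 of 6 at P30, beside 19.4% and 20.2%. Mitf is among them. Pax3, a neural crest factor that acts above Mitf, was at 1242 CPM (972 to 1565) in 13 of 15 barcodes and 779 (499 to 1159) in 11 of 17, against 0.922 and 0.594 in the matrix class. Cdk2, a known target of MITF, was at 535 against 26.7 and 357 against 10.2 CPM. Zeb2 was at 328 against 305 at P7 and 584 against 233 at P30. Sox9 was the lower gene in both, at 104 against 444 and 130 against 435. Among the MITF relatives, Tfec had no UMI in pigment barcodes, Tfe3 had 1 and 0 and Tfeb 4 and 3.

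Ednrb, Kit and Met were the receptor genes of the list with 5 or more UMIs in both libraries, while Ngfr and Fgfr2 had none. Kit, the receptor of stem cell factor, had 15 UMIs in 7 barcodes at P7 and 5 in 2 at P30, and none in the P7 matrix class. Met, the receptor of hepatocyte growth factor, was at 242 CPM at P7 and 584 at P30, against 0 and 0.475 in the matrix class. The protease Adam10 was at 328 against 128 CPM at P7, and at P30 it had 3 UMIs in 1 pigment barcode (97.3 CPM). Endothelial barcodes had it at 352 and 165 CPM. In the receptor and ligand list 4 of 4 measured genes were higher than in the matrix class at P7 and 2 of 2 at P30. Ednrb is included, and the shares of all measured genes were 20.8% and 19.4%. Over the endothelial class 3 of 7 were higher and 3 lower at P7, beside 19% and 21.5% of all measured genes. At P30 2 of 3 were higher and 1 lower, beside 18.2% and 24.2%. Mc1r, the melanocortin receptor, had 3 UMIs in 2 barcodes at P7 and 0 at P30, where the floor of 3 UMIs stands at 97.3 CPM. Kitl, which encodes stem cell factor, was at 162 CPM (145 to 180) in the matrix and 178 (144 to 217) in the endothelial class at P7 and at 93.3 (86.9 to 100.1) and 165 (147 to 185) at P30. The endothelin gene Edn1 was mainly endothelial, at 205 CPM (169 to 247) and 271 (248 to 297), and had no UMI in pigment barcodes. Edn3 was not analysed here.

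Lysosome genes differed less than the melanosome genes. Of 11 measured at P7 and 7 at P30, 4 and 4 were at least 2-fold higher than in matrix barcodes and none lower. The median log2 ratio was 0.89 and 1.002, and the shares of all measured genes that were higher were 20.8% and 19.4%. Ctsl stood at 828 against 592 and 649 against 694 CPM, Lamp1 at 742 against 379 and 616 against 489, and Ctsb at 535 against 321 and 681 against 440. In the prostaglandin list Ptgds was the 1 measured gene that was higher, while Ptgis, which makes prostacyclin, was lower, at 104 against 544 and 32.4 against 447 CPM, and Hpgds, the other prostaglandin D synthase, had 2 UMIs in each library. Cell cycle genes gave 1 measured gene, Tubb5, within 2-fold in both. Mki67 had no UMI in pigment barcodes, and Top2a had 1, at P7. In the adhesion list Cd44 was higher, at 656 against 165 and 552 against 184 CPM, and Cd9 was at 414 against 756 and 422 against 1133.

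Genes of metal binding and oxidative stress were mostly, though not all, at higher levels in P30 than in P7 pigment barcodes. Over the matrix class 7 of 12 measured were higher at P7 and 6 of 11 at P30, beside 20.8% and 19.4% of all measured genes. From P7 to P30, 8 of 12 measured were at least 2-fold higher and 1 was lower, beside 17.9% and 20.7% of all genes, and the list's median was 1.24 (log2) against -0.06 for all genes. The ferritin heavy chain gene Fth1 was at 2588 CPM in P7 and 6359 in P30 pigment barcodes, the metallothionein genes Mt1 at 1294 and 2985 and Mt2 at 190 and 1460, and the glutathione transferase gene Gsta4 at 104 and 681. Gclm, a subunit of the enzyme that starts glutathione synthesis, was the lower one, at 1156 and 195. The ferritin light chain gene Ftl1 (log2 -0.56) and the peroxiredoxin gene Prdx1 (log2 -0.41) differed by less than 2-fold. In the matrix class 4 of 21 were higher and 2 lower, beside 5.8% and 18.3% of all genes, the median being 0.47 against -0.33 for all genes. In the endothelial class 3 of 18 were higher and 1 lower, beside 5.38% and 14.2%, with a median of 0.33 against -0.20. Of the genes named, Mt1 (log2 2.15) was higher there and Gclm (log2 -1.71) lower, while Fth1 (log2 0.92) and Gsta4 (log2 -0.26) were within 2-fold. Mt2, with no UMI at P7 and 26 at P30, missed the minimum there. For Mt1 the log2 ratio of pigment over all other barcodes fell from 4.996 at P7 to 3.52 at P30. For Mt2 it fell from 5.27 to 4.07, so both genes rose more outside the pigment barcodes than inside. That of Gsta4 went the other way, from 2.28 to 5.001. Mitochondrial UMIs also differed between these pigment barcodes, as given above, and their part was not tested. Interferon response genes were higher in pigment than in matrix barcodes for 3 of 5 measured at P7 and 0 of 4 at P30, beside 20.8% and 19.4% of all genes. The 3 were the class I genes H2-K1 (log2 3.64) and H2-D1 (log2 2.15) and the class I light chain gene B2m (log2 1.52). Over the endothelial class 1 of 5 was higher and 2 lower at P7, beside 19% and 21.5% of all genes. At P30 0 of 6 were higher and 4 lower there, beside 18.2% and 24.2%. Between the libraries 2 of 4 interferon response genes were higher in pigment barcodes, beside 17.9% of all genes. These were B2m (1518 and 3731 CPM) and Ifi27l2a, with no UMI at P7 and 16 in 6 barcodes at P30. In the matrix class 16 of 17 and in the endothelial class 13 of 17 were higher at P30, beside 5.8% and 5.38% of all measured genes.

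The genes most like the members were ranked by the lower 95% bound of the ratio of pigment over all other barcodes, taking the lower of the 2 libraries. Candidates were 866 genes with at least 5 UMIs, spread over at least 3 pigment barcodes, in each library. Of the first 15 genes, 14 are described here: Syt4, Pax3, Mcoln3, Trpm1, Gsta1, Syngr1, Mlph, Fstl4, Met, Gsta2, Oca2, Rab38, Mgll and Chchd10. Syt4 had 96 UMIs in pigment barcodes and none elsewhere at P7, and 106 against 2 at P30. Trpm1, a cation channel gene of melanocytes and retina, had 53 against 7 and 26 against 5. Gsta1 and Gsta2, glutathione transferases that are near-identical copies and may share reads, had 18 against 3 and 19 against 4, and 15 against 4 and 13 against 3. Mgll, which encodes monoacylglycerol lipase, was the most abundant of the 14, at 3658 CPM in 15 of 15 and 4283 in 17 of 17 barcodes, at a ratio of 57.4-fold and 38.9-fold, and endothelial barcodes had it at 292 and 525 CPM.

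**Figure D5:**
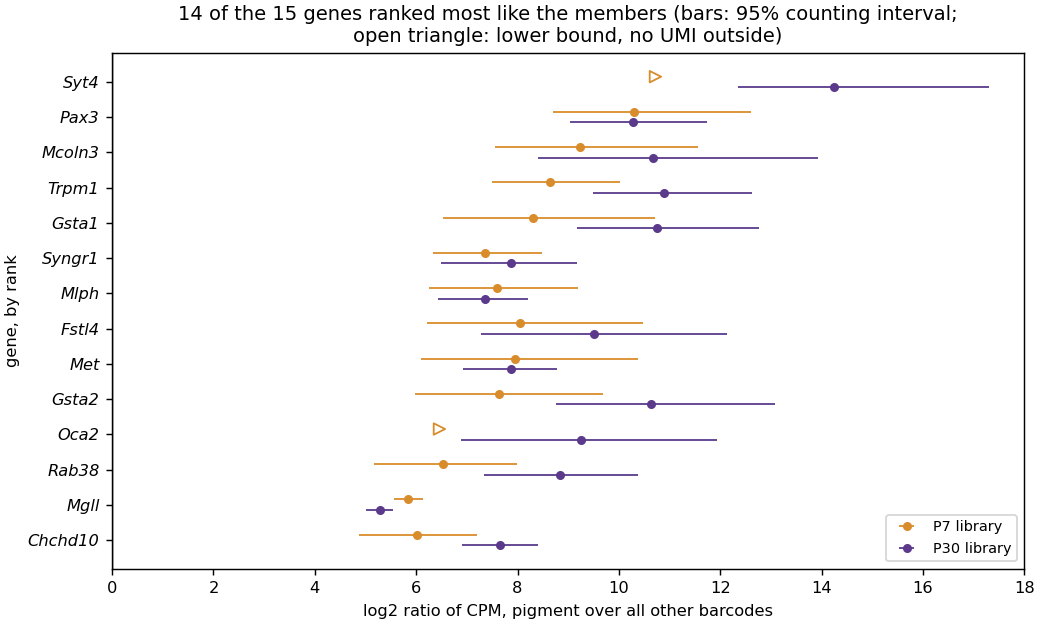
Log2 ratio of CPM in pigment over all other barcodes (x axis) of 14 of the 15 genes ranked most like the members, in the P7 and the P30 library, with 95% counting intervals; open triangles are lower bounds where no UMI lay outside. All 14 genes have ratios over 5 in both libraries, from 5.28 for Mgll at P30 to 14.24 for Syt4 at P30.

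A ranking made in the P30 library alone was read in the P7 library, which had no part in it. Of the first 30 genes, all 30 had a UMI in P7 pigment barcodes and were at least 2-fold higher there than in all other barcodes. Of the 27 that were measured at P7 all 27 were so, beside 18.4% of all measured genes. The median log2 ratio was 5.32 in the P30 library and 5.06 in the P7 library, and the lowest at P7 was 2.28, for Gsta4 with 6 UMIs. Besides the genes above, the 30 included Lgals3, which encodes galectin-3 (log2 6.07 at P30 and 3.77 at P7), S100b, a calcium-binding protein of glia and melanocytes (4.38 and 4.34), and Gstp1 (3.68 and 4.39).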

How the data were processed

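The authors deposited Drop-seq UMI counts per gene and cell barcode for 1 P7 and 1 P30 library, whole numbers with no normalization, per the file headers and values. Build mm10 and Bowtie2 2.2.7 stand in the submitters' processing notes without a stated role. Deposited normalized tables were not used. Every deposited barcode has at least 500 detected genes. No barcode was filtered out further and no doublet caller was run. Pigment barcodes with marker UMIs of another class are given by their matrix and endothelial UMIs. Totals were 3116184 and 11267724 UMIs.

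The 10 members, the 10 gene lists and the rules were chosen with earlier results of these data known. UMIs were summed per class in Python 3.11.15 with pandas 2.3.3 and SciPy 1.17.1. Intervals are exact at 95%: Poisson for levels, conditional binomial for ratios and Clopper-Pearson for shares. A class without a UMI was set at 3 UMIs, and its ratio is a bound under that setting, not an exact limit. Named from each list were up to 4 genes with the most UMIs in pigment barcodes, then the 15 most-like and the first 30 ranked genes, leaving out mitochondrial, ribosomal, haemoglobin and unnamed ones. Ligands, MITF relatives, Trpm7, Sox9, Mc1r, Hpgds, Gclm, Ifi27l2a, Mki67, Top2a and genes of barcodes carrying a member were named after their values were seen. On simulated counts of 23702 genes, 4-fold changes were recovered for 98% or more of changed genes in both libraries. Intervals held the true value for 97% (P7) and 95.5% (P30). Of unchanged measured genes 5.69% (P7) and 6.95% (P30) were called 2-fold apart. Changed genes had at least 10 expected UMIs. Counts were drawn without variation between barcodes, so the simulation covers counting error only. RefSeq promoter windows had no entry for Pmel, Mlana and Slc45a2. Alternatives covered thresholds, mixed and deep barcodes, weighting, totals and scaling. Of the 15 most-like genes 1 is not reported here.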

Additional observations from a re-analysis of the deposited data

How the results depend on the processing

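No paired analysis was possible because each age has 1 library, and leaving out a replicate could not be done for the same reason. The number of pigment barcodes was 15 (10 to 17) at P7 and 17 (14 to 18) at P30 over thresholds of 3 and 10 UMIs, a share threshold, each gene left out and barcodes ending in N, or 1 base from a deeper one, removed. Counted whether or not they reached the UMI minimum, all 10 members were at least 2-fold higher in pigment than in matrix and endothelial barcodes of both libraries under every setting run. The number of members 2-fold apart between P30 and P7 pigment barcodes was 3, became 5 without the mixed barcodes and 1 without the barcode richest in the member, an alternative added after the data were seen. In endothelial barcodes it was 1, became 2 with each barcode weighted equally (Mitf added, log2 -2.00), and 0 both without barcodes over 20000 UMIs and with levels scaled by the median of ratios. List genes outside the members at least 2-fold higher than in P7 matrix barcodes numbered 33, counting a gene once for each list that holds it, and 52 with a minimum of 5 UMIs. The causes of these changes were not tested. Of the values for single genes and lists, 451 stayed within their interval or, for list counts, near the main count, and 51 moved. No ratio of at least 2-fold changed sign. Smaller ratios were not judged for a change of sign. That of Mlana between the pigment barcodes of the libraries went from log2 0.13 to -0.19 with each barcode weighted equally. Against totals, scaling by the median of ratios sets the zero of the P30 to P7 comparison at log2 0.10 in pigment, -0.35 in matrix and -0.23 in endothelial barcodes. The log2 ratio of Ptgds in pigment barcodes ranged from 1.53 to 2.64 and kept its side of 2-fold. A minimum of 10 UMIs kept 11 of the 15 most-like genes. Depth limits Slc45a2 and Tyr at P30, with 9 and 14 UMIs.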
